A study of Caenorhabditis elegans with 6 samples.

Results

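Insulin-like peptide genes and the genes of the insulin receptor pathway were examined in whole L4 larvae of *Caenorhabditis elegans*, the last larval stage. The members are the 24 measured ligand genes, which are daf-28 and every gene named ins- with a number in the platform annotation, and 10 genes of the intracellular pathway from the receptor to its transcription factor. These 34 genes are part of the 17118 genes that had a probe set with a single gene symbol. Every member had such a probe set, and where a gene had several, the one with the highest mean signal over the 6 arrays stood for it. Affymetrix single-colour arrays were used, with 3 arrays for the strain alg-1(gk214) and 3 for the wild type N2. Both strains were synchronized and grown at 25 °C on OP50 bacteria, and the labels call the replicates of each strain independent. The alg-1 gene encodes an Argonaute through which worm microRNAs act, and the labels tie the experiment to genes targeted by it. No loss of any gene other than alg-1 is given for the mutant, and each array holds RNA of whole worms.

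In *C. elegans* a large family of insulin-like peptides, made in neurons, intestine and other tissues, acts on a single insulin receptor, DAF-2. Some of these peptides activate the receptor and others oppose it. DAF-2 signals through the phosphoinositide 3-kinase AGE-1 and the kinases PDK-1, AKT-1 and AKT-2, which keep the FOXO transcription factor DAF-16 out of the nucleus. The pathway is known for its part in the choice of dauer arrest, in lifespan, in stress resistance and in fat storage.

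Values are deposited log2 levels, and changes are mutant minus wild type on the log2 scale. A gene is said to have risen or fallen only where limma's adjusted p, over all 22548 probe sets tested, was under 0.05. Correlations between arrays were 0.998 within the mutant, 0.994 to 0.996 within the wild type and 0.968 to 0.976 between the strains. The GAPDH control gave 3′ minus 5′ differences of −0.14 to −0.22 on the mutant arrays, −0.23 on wild type replicates 1 and 2, and −0.58 on wild type replicate 3. Of the alg-1 probe sets, the one of highest signal fell by 0.73 (adjusted p = 0.000245). Another fell by 0.62 (adjusted p = 0.00977), while a further one differed by only −0.10 (adjusted p = 0.748). The paralog alg-2 rose by 0.40 (adjusted p = 0.00481), and by 0.22 on its other probe set (adjusted p = 0.037). No source used here says whether the alg-1 probes lie in the deleted part. Of all genes, 34.6% passed the threshold, 14.4% as higher and 20.1% as lower in the mutant, and the median change was −0.06. Centring the arrays on the bacterial hybridization controls moved the median change of all probe sets from −0.05 to 0.08, and the split of called genes from 2466 higher and 3449 lower to 3582 higher and 1812 lower. Markers of epidermis mostly rose (14 of 17, median change 1.34) and markers of germline and sperm mostly fell (17 of 19, median change −0.88). The epidermal list was uneven: sqt-1, grl-15, mlt-10 and mlt-9 rose by 3.24, 3.55, 2.74 and 3.66. The 3 that did not pass, named after their values were seen, were elt-1 (0.04), elt-3 (−0.12) and bli-1 (−0.59). In RNA of whole worms, fewer cells of a type and less RNA per cell cannot be told apart. How closely the strains matched in stage within L4 was not tested either.

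Among the ligands, 5 rose, 2 fell and 17 did not pass the threshold. The rises were those of ins-35, ins-33, daf-28, ins-22 and ins-11, and the falls those of ins-7 and ins-37. Called ligands made up 29.2% of the 24, against 34.6% of all genes. Rises made up 20.8% of the ligands against 14.4% of all genes, and falls 8.33% against 20.1%. With arrays centred on the hybridization controls, 8 ligands rose and 1 fell. Only ins-35 and ins-33 changed by 2-fold or more. The median change over the 24 ligands was 0.06, beside −0.06 over all genes. The 3 mutant values did not overlap the 3 wild type values for 12 of 24 ligands, and for 48.7% of all genes.

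**Figure D1:**
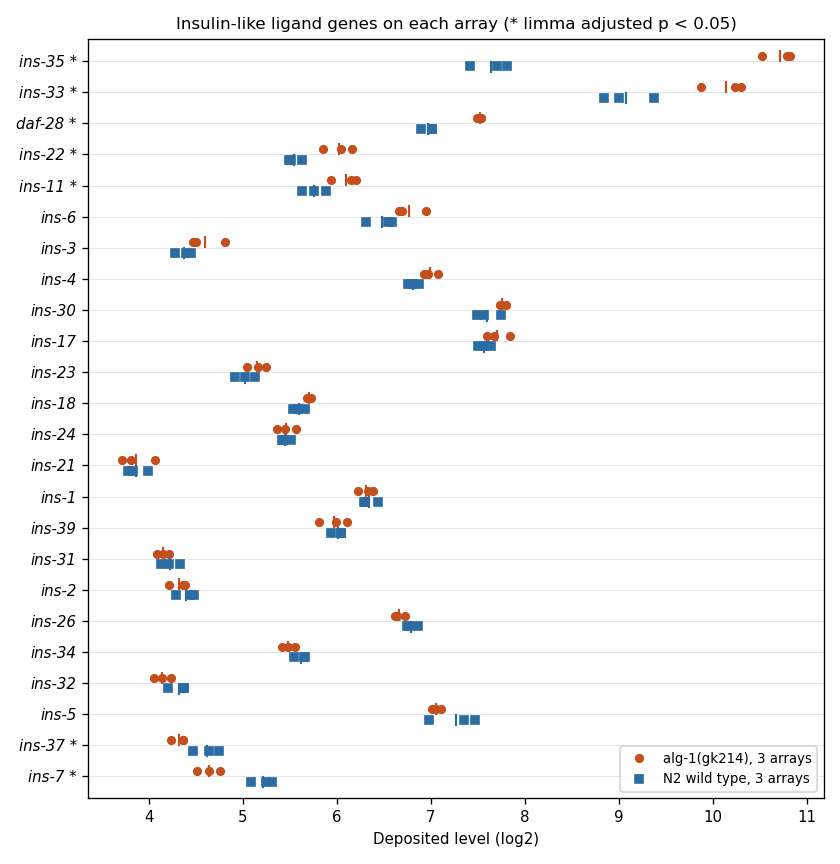
Deposited log2 level (horizontal axis) of each of the 24 ligand genes on every array, circles for 3 alg-1(gk214) arrays, squares for 3 N2 arrays and short bars for the group means. Genes are ordered by their change; ins-35 has mutant values of 10.52 to 10.83 against 7.42 to 7.81 in the wild type, while for ins-1 and ins-24 the groups lie on top of each other.

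The ins-35 signal was 10.79, 10.52 and 10.83 on mutant arrays 1 to 3 and 7.81, 7.71 and 7.42 on wild type arrays 1 to 3. The lowest mutant value thus lay far above the highest wild type value. The change was 3.07 (SE 0.12, limma adjusted p = 4.75e-07), an 8.40-fold rise with a 95% interval of 6.95 to 10.2. It lay between 2.96 and 3.20 under all 17 alternatives run.

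The ins-33 gene, known as a gene repressed by the timing factor LIN-14 in the hypodermis of early larvae, read 10.24, 9.87 and 10.31 in mutant worms against 9.38, 9.0 and 8.85 in wild type worms. All mutant values exceeded all wild type values, and wild type replicate 1 stood nearest to the mutant. The rise was 1.07 (SE 0.153, limma adjusted p = 0.00083), or 2.09-fold with an interval of 1.64 to 2.66. Most epidermal markers rose as well, though not all. The mean level of that list was 9.85 to 9.94 on the mutant arrays and 8.16 to 8.42 on the wild type arrays. The part of these markers in the ins-33 and ins-35 values was not tested.

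DAF-28 is a neuronal agonist of DAF-2 that keeps larvae out of dauer arrest. Its gene read 7.54, 7.50 and 7.53 in mutant worms against 6.90, 7.01 and 7.01 in wild type worms. Both groups were tight and did not overlap, and daf-28 rose by 0.55 (SE 0.0685, limma adjusted p = 0.000385), or 1.46-fold. Its adjusted p was between 0.000129 and 0.00369 under the 17 alternatives.

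Tagged INS-22 is widely used as a reporter of dense-core vesicle release from neurons. The ins-22 gene read 6.04, 6.17 and 5.85 in mutant worms against 5.63, 5.49 and 5.51 in wild type worms, without overlap. It rose by 0.48 (SE 0.0928, limma adjusted p = 0.00429). For ins-11 the values were 6.21, 6.15 and 5.94 against 5.76, 5.63 and 5.88, so that mutant replicate 3 and wild type replicate 3 nearly met. The ins-11 rise of 0.35 (SE 0.0966, limma adjusted p = 0.023) did not pass without mutant replicate 1 (adjusted p = 0.0961), without mutant replicate 2 (adjusted p = 0.0802) or without wild type replicate 2 (adjusted p = 0.0746). Over its 15 alternatives the adjusted p ran from 0.00425 to 0.0961. Its only probe set ends in _s_at, the mark for probes that match several transcripts. Neuronal markers gave 5 rises and 0 falls of 20 by limma (6 and 2 at an unadjusted p under 0.05), and 11 rises once arrays were centred on the hybridization controls, where 3582 of all genes were higher and 1812 lower. Without that centring, 25.0% of the list was called, all as rises. Of all genes, 34.6% were called, 14.4% as higher and 20.1% as lower. Of the 20 neuronal markers, 16 lie above the median signal, where 49.2% of all genes were called. The mean level of that list was 7.73 to 7.76 in the mutant and 7.54 to 7.60 in the wild type, and its part in the ligand values was not tested.

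INS-7 is an agonist of DAF-2, and its gene is known to be repressed by DAF-16 in the intestine. It read 4.51, 4.64 and 4.76 in mutant worms against 5.31, 5.24 and 5.09 in wild type worms. Every mutant value lay below every wild type value, and ins-7 fell by 0.58 (SE 0.09, limma adjusted p = 0.0013), or 1.49-fold. The signal was low, at percentile 34.4 of all probe sets, and the fall passed the threshold under all 16 alternatives that could be run. Intestinal markers changed in both directions, with 4 rises and 4 falls of 15, or 5 and 2 under centring on the bacterial controls. That is 53.3% called without that centring, against 34.6% of all genes. All 15 lie above the median signal, where 49.2% of all genes were called, so the list is near that share.

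The fall of ins-37 was less stable. Values were 4.23, 4.36 and 4.36 in mutant worms against 4.64, 4.47 and 4.75 in wild type worms, at percentile 24 of signal, and ins-37 fell by 0.30 (SE 0.0887, limma adjusted p = 0.0302). It did not pass without mutant replicate 1 (adjusted p = 0.118), 2 (0.0647) or 3 (0.0684), nor without wild type replicate 1 (0.0554) or 3 (0.0717). It also missed the threshold after quantile normalization (adjusted p = 0.0567), with array weights (adjusted p = 0.0527) and with centring on the hybridization controls (change −0.16, adjusted p = 0.211).

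The remaining ligands that are known from dauer and lifespan work did not pass the threshold. INS-6 is an agonist that promotes exit from dauer, and ins-6 read 6.69, 6.95 and 6.66 in the mutant against 6.54, 6.31 and 6.59 in the wild type. The groups did not overlap, and the change was 0.29 (95% interval 0.05 to 0.53, limma adjusted p = 0.0644). It passed with centring on the hybridization controls (0.42, adjusted p = 0.00799) and with array weights (0.35, adjusted p = 0.0289), within a range of 0.00799 to 0.212 over its 17 alternatives. The agonist gene ins-4 differed by 0.18 (interval 0.02 to 0.35, limma adjusted p = 0.09), and passed only with that centring (0.32, adjusted p = 0.0226, of a range up to 0.278). The agonist gene ins-3, at percentile 24.5 of signal, differed by 0.22 (interval −0.02 to 0.45).

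INS-1 and INS-18 are known as antagonists of DAF-2. The ins-1 signal was 6.38, 6.23 and 6.34 against 6.29, 6.44 and 6.30, with overlapping groups and a change of −0.03 (interval −0.20 to 0.15). The ins-18 signal was 5.72, 5.68 and 5.70 against 5.66, 5.59 and 5.54, a change of 0.11 (interval −0.05 to 0.26, limma adjusted p = 0.273). These intervals leave room for changes of at most 1.20-fold in either gene.

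Other ligands with a signal above the median of all probe sets were ins-30 (0.16), ins-17 (0.13), ins-26 (−0.13) and ins-5 (−0.21), all changes on the log2 scale short of the threshold. The wild type values of ins-5 were spread, at 7.47, 6.98 and 7.36, while its mutant values were 7.10, 7.01 and 7.06. Without wild type replicate 2 the ins-5 change was −0.36 (limma adjusted p = 0.0135, of a range up to 0.695 over 17 alternatives). For ins-30, leaving out wild type replicate 3 gave 0.24 (adjusted p = 0.0349), and centring on the hybridization controls gave 0.30 (adjusted p = 0.0293, of a range up to 0.404). The ins-39 gene differed by −0.04 (interval −0.24 to 0.17). Changes of ins-2, ins-21, ins-23, ins-31, ins-32 and ins-34 lay between −0.18 and 0.13.

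Only ins-24 among the ligands had a second probe set. The one with the higher signal differed by 0.01 (interval −0.17 to 0.18), whereas the other, which ends in _s_at, read 5.62, 5.31 and 5.24 in mutant worms against 4.78, 4.97 and 4.97 in wild type worms. That probe set rose by 0.48 (SE 0.109, limma adjusted p = 0.00863). These probe sets therefore disagreed, and no source used here says which of them reports ins-24 alone.

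Genes at large were called more often above the median signal than below it. The ligand counts are too small to show whether ligands differ in this, and that was not tested. Of 10 ligands above the median signal of all probe sets, 3 were called (30.0%, against 49.2% of all genes above it). Of the 14 at or below that median, 4 were called (28.6%, against 20.1% of all genes there). These include ins-11 and ins-37, which missed the threshold under several alternatives.

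**Figure D2:**
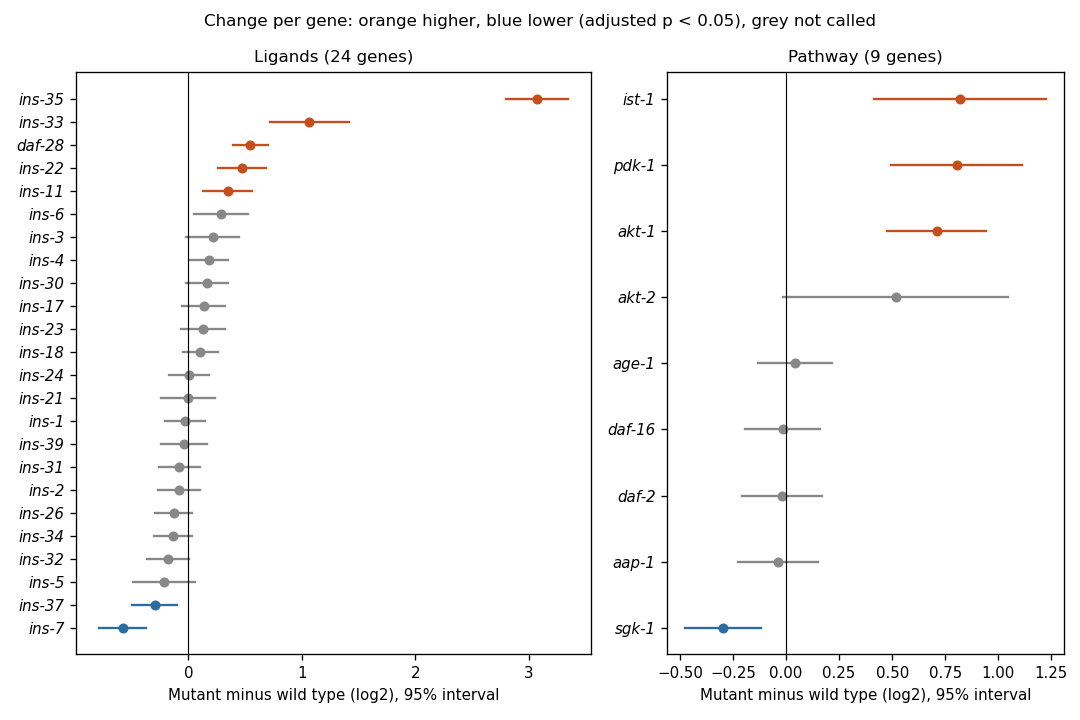
Change of each ligand gene (left) and of 9 pathway genes (right), mutant minus wild type on the log2 scale, with its 95% interval from limma, 3 arrays per group; orange marks rises, blue falls and grey genes that did not pass. The scales of the panels differ: ins-35 stands at 3.07, while pathway changes run from −0.30 to 0.82.

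In the receptor pathway, 3 of 10 genes rose, 1 fell and 6 did not pass, which is 40.0% called against 34.6% of all genes. Of the 8 above the median signal, 37.5% were called, against 49.2% of all genes there. The risers were ist-1, pdk-1 and akt-1, and sgk-1 fell. None reached 2-fold, and the median change was 0.01. With arrays centred on the hybridization controls, 3 rose and 0 fell by limma, with 4 and 0 at an unadjusted p under 0.05. The 25 probe sets of these genes gave 9 rises and 3 falls. Most of these rises came from pdk-1, akt-1 and ist-1, each read by several probe sets, so they are not separate genes. Of all probe sets 33.7% passed, 14.8% as higher and 18.9% as lower.

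The receptor gene daf-2 was read by 4 probe sets, all of low signal, at percentiles 17.1 to 30.0 and all ending in _s_at or _x_at. The one with the highest signal read 4.73, 4.66 and 4.71 in mutant worms against 4.60, 4.87 and 4.70 in wild type worms, with overlap and a change of −0.02 (interval −0.21 to 0.17, limma adjusted p = 0.893). The others differed by 0.09, −0.28 and −0.42. The probe set at −0.28 passed with array weights (adjusted p = 0.0283) and with a trended robust prior (adjusted p = 0.0465). The last of these fell (SE 0.0986, limma adjusted p = 0.0109), with 4.08, 4.08 and 3.86 against 4.33, 4.36 and 4.60, and narrowly missed the threshold without mutant replicate 3 (−0.34, adjusted p = 0.0507). The daf-2 probe sets thus did not give a single direction.

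IST-1 is the insulin receptor substrate homolog that links the receptor to phosphoinositide 3-kinase. The ist-1 gene read 6.70, 6.15 and 6.47 in mutant worms against 5.82, 5.25 and 5.80 in wild type worms. The groups did not overlap, although replicate 2 was low in both. The gene rose by 0.82 (SE 0.178, limma adjusted p = 0.00715), or 1.77-fold with an interval of 1.33 to 2.34. Its other probe set rose by 0.56 (SE 0.12, adjusted p = 0.00657). The first value passed the threshold under all 16 alternatives run, with adjusted p up to 0.0327.

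Genes of the lipid kinase did not pass the threshold in their probe sets of highest signal. The adaptor subunit gene aap-1 read 8.32, 8.11 and 8.12 in mutant worms against 8.24, 8.14 and 8.29 in wild type worms, a change of −0.04 (interval −0.23 to 0.15). The catalytic subunit gene age-1 read 7.46, 7.30 and 7.33 against 7.25, 7.35 and 7.37, a change of 0.04 (interval −0.13 to 0.22). For both genes the groups overlapped. A second age-1 probe set, at percentile 24.9 of signal and ending in _x_at, rose by 0.26 (limma adjusted p = 0.0158) but did not pass without mutant replicate 1 (0.24, adjusted p = 0.0701).

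**Figure D3:**
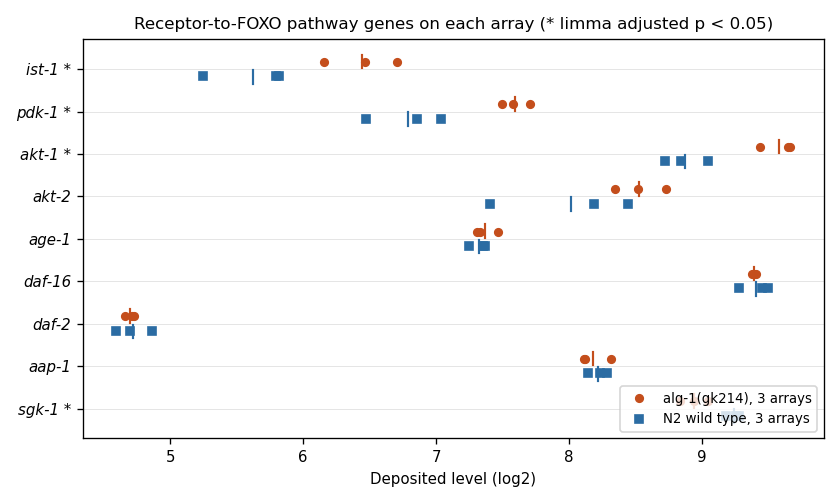
Deposited log2 level (horizontal axis) of 9 of the 10 pathway genes on every array, circles for 3 alg-1(gk214) arrays, squares for 3 N2 arrays and short bars for the group means; genes are ordered by their change. The groups separate for ist-1, pdk-1, akt-1 and sgk-1, and wild type replicate 3 of akt-2, at 7.40, lies apart from the other akt-2 values.

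PDK-1 phosphorylates and activates the AKT kinases. The pdk-1 gene read 7.70, 7.49 and 7.58 in mutant worms against 6.85, 7.04 and 6.47 in wild type worms, without overlap and with wild type replicate 3 lowest. It rose by 0.80 (SE 0.136, limma adjusted p = 0.00202), or 1.75-fold with an interval of 1.41 to 2.16, and by 0.65 without wild type replicate 3 (adjusted p = 0.00173). Of its 5 probe sets, 3 rose, by 0.80, 0.39 and 0.85. The 2 with the lowest signal, at percentiles 38 and 23.2, differed by 0.17 (adjusted p = 0.149) and −0.02 (adjusted p = 0.865). The probe set at −0.02 is the only one of pdk-1 without the _s_at ending.

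AKT-1 and AKT-2 are the kinases that phosphorylate DAF-16. The akt-1 gene read 9.66, 9.44 and 9.65 in mutant worms against 9.05, 8.84 and 8.72 in wild type worms, so the lowest mutant array exceeded the highest wild type array. It rose by 0.71 (SE 0.103, limma adjusted p = 0.000857), or 1.64-fold with an interval of 1.39 to 1.92, and its second probe set rose by 0.69 (SE 0.0961, adjusted p = 0.000694). Both probe sets end in _s_at, and the rise passed under all 16 alternatives run.

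The akt-2 values were 8.73, 8.52 and 8.35 in mutant worms against 8.44, 8.19 and 7.40 in wild type worms, with overlapping groups. The difference was 0.52 (interval −0.01 to 1.05, limma adjusted p = 0.123). It was 0.21 without wild type replicate 3 (adjusted p = 0.248) and 0.73 without wild type replicate 1 (adjusted p = 0.0239), so single wild type arrays set its size. A second akt-2 probe set differed by 0.29 (interval 0.04 to 0.55, limma adjusted p = 0.0777) and passed without mutant replicate 2 (adjusted p = 0.0477), without wild type replicate 1 (adjusted p = 0.0206) and with centring on the hybridization controls (0.43, adjusted p = 0.0371). A test of whether akt-1 and akt-2 changed by different amounts was not run.

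SGK-1 is a related kinase that acts beside the AKT kinases. The sgk-1 gene read 8.94, 9.05 and 8.83 in mutant worms against 9.25, 9.28 and 9.18 in wild type worms, and all mutant values lay below all wild type values. It fell by 0.30 (SE 0.0779, limma adjusted p = 0.0174), or 1.23-fold. The fall missed the threshold without mutant replicate 1 (adjusted p = 0.0598), mutant replicate 3 (adjusted p = 0.0776) or wild type replicate 2 (adjusted p = 0.0537). With centring on the hybridization controls it was −0.16 (adjusted p = 0.194, of a range from 0.00758).

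For daf-16, the FOXO gene at the end of the pathway, the probe set of highest signal read 9.41, 9.39 and 9.37 in mutant worms against 9.27, 9.45 and 9.49 in wild type worms. The mutant values fell inside the wild type range, and the difference was −0.02 (interval −0.19 to 0.16, limma adjusted p = 0.903). Of the others, 2 also ended in _s_at and differed by 0.11 (adjusted p = 0.438) and −0.17 (adjusted p = 0.163). The remaining probe set, the only one of daf-16 without the _s_at ending, read 8.37, 8.17 and 8.26 in mutant worms against 7.84, 7.77 and 7.23 in wild type worms. It rose by 0.66 (SE 0.15, limma adjusted p = 0.00916), and by 0.47 without wild type replicate 3 (adjusted p = 0.0043). The gene has several transcripts from separate promoters, and no source used here says which of them each probe set reads.

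**Figure D4:**
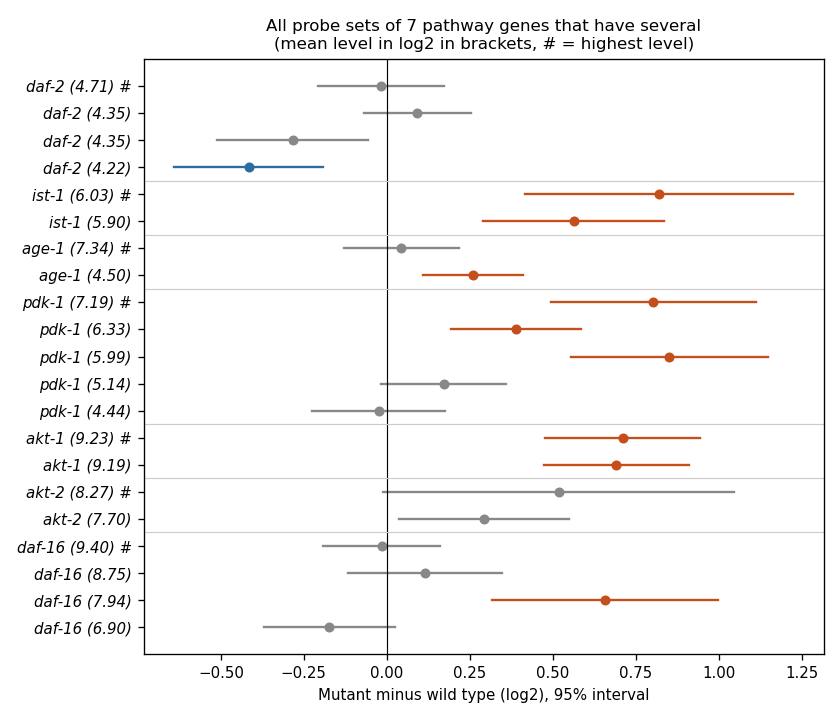
Change, mutant minus wild type on the log2 scale with its 95% interval, for every probe set of 7 pathway genes that have several; the mean log2 level is in brackets and # marks the probe set with the highest level. Both probe sets of ist-1 and of akt-1 lie above 0, whereas those of daf-16 run from −0.17 to 0.66 and those of daf-2 from −0.42 to 0.09.

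Genes that cut and release peptides were described beside the ligands. Of 16 such genes, 6 rose and 1 fell, with a median change of 0.11, and 43.8% were called against 34.6% of all genes. Of these 16, 13 lie above the median signal, where 49.2% of all genes were called. The list shares egl-3, egl-21 and snt-1 with the neuronal markers. The rises of egl-3 and egl-21, the latter named after its values were seen, are thus counted in both lists. With probe sets that end in _s_at or _x_at removed, 3 of 9 rose and 2 fell, or 55.6% called against 30.7% of all genes. With centring on the hybridization controls, 8 rose and none fell by limma (9 and 0 at an unadjusted p under 0.05). Prohormone convertases cut peptide precursors, and the convertase gene kpc-1 read 9.34, 9.09 and 9.47 in mutant worms against 8.37, 8.42 and 8.73 in wild type worms. It rose by 0.79 (SE 0.124, limma adjusted p = 0.00135). The convertase gene egl-3, which makes neuropeptides, rose by 0.44 (adjusted p = 0.00191), and unc-13, which primes vesicles for release, rose by 0.77 (adjusted p = 0.000221). The kpc-1 and unc-13 values come from probe sets that end in _x_at. The convertase gene bli-4 rose by 0.57 (SE 0.0843, adjusted p = 0.000962), but the bli-4 probe set that carries neither ending fell by 0.43 (adjusted p = 0.00238). The single fall was that of unc-31, a factor in dense-core vesicle release named after its values were seen, with a change of −0.28 (adjusted p = 0.0366) at a low signal of 3.93 to 4.42. It missed the threshold without any 1 mutant array (adjusted p up to 0.133), without wild type replicate 1 (0.0646) or 3 (0.088), after quantile normalization (0.0722) and with array weights (0.0615).

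Known regulators of DAF-16 and of the kinase cascade gave 3 rises and 5 falls of 27 measured, with a median change of −0.04. That is 29.6% called, against 34.6% of all genes. Of these 27, 22 lie above the median signal, where 49.2% of all genes were called. With only probe sets above that median fitted, 36.4% of the 22 were called, against 51.7% of all genes. With centring on the hybridization controls the 27 gave 5 rises and 1 fall, and the median was 0.09. The stress kinase gene jnk-1 rose by 0.70 (SE 0.115, limma adjusted p = 0.00182), with 7.36, 7.17 and 7.13 against 6.69, 6.60 and 6.28. The gene of the stress factor SKN-1, which the insulin kinases also control, rose by 0.74 (SE 0.164, adjusted p = 0.00792), with 9.27, 9.06 and 9.20 against 8.73, 8.56 and 8.01. The transportin gene imb-2 fell by 0.39 (adjusted p = 0.00283), and differed by −0.36 (adjusted p = 0.0678) on a probe set with neither ending. Both 14-3-3 genes, whose proteins bind DAF-16, passed in opposite directions: par-5 fell by 0.30 (adjusted p = 0.0163) and ftt-2, named after its values were seen, rose by 0.23 (adjusted p = 0.031), a rise that did not pass without any 1 mutant array or without wild type replicate 2 (adjusted p up to 0.11). The par-5 change was −0.16 with centring on the hybridization controls (adjusted p = 0.187), −0.23 without mutant replicate 3 (adjusted p = 0.0703) and 0.02 on its probe set with neither ending (adjusted p = 0.893). The other falls, named after their values were seen, were those of the TOR-branch genes rsks-1 (−0.44), raga-1 (−0.28) and rict-1 (−0.31). None of these 3 passed with that centring or without mutant replicate 1 or 3 (adjusted p up to 0.132).

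Among genes known to be raised by DAF-16, 13 of 25 measured rose and 2 fell, with a median change of 0.24. The rises make up 52.0% of the list, against 14.4% of all genes. In either direction 60.0% were called, and 20 of the 25 lie above the median signal, where 49.2% of all genes were called. The 25 are those measured of 38 listed, and hsp-16.1, hsp-16.48 and hsp-16.49 are not among them. The dod-3 gene, named as downstream of daf-16, read 10.46, 10.08 and 10.22 in mutant worms against 8.02, 7.51 and 7.43 in wild type worms. It rose by 2.60 (SE 0.158, limma adjusted p = 5.72e-06), or 6.07-fold. The metallothionein gene mtl-1 and the lysozyme gene lys-7 rose by 3.53 and 1.35. The manganese superoxide dismutase gene sod-3, a common reporter of DAF-16 named after its values were seen, read 6.45, 5.76 and 6.0 against 5.20, 5.23 and 5.44. It rose by 0.78 (SE 0.16, adjusted p = 0.00567). Both falls were those of small heat shock genes, hsp-16.2 (−2.87) and hsp-16.41 (−3.23, named after its values were seen), which DAF-16 and heat shock factor are both known to activate. With probe sets ending in _s_at or _x_at removed, 7 of 17 rose and 2 fell, or 52.9% called, and the median change was 0.04. Of all genes in that setting, 1857 of 13618 rose and 30.7% were called, with a median change of −0.05. The list shares mtl-2 with the intestinal markers.

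Among genes known to be lowered by DAF-16, 1 of 12 measured rose and 2 fell, or 25.0% called against 34.6% of all genes, with a median change of −0.08 that became 0.05 with that centring on the hybridization controls. The dod-17 gene read 6.95, 7.18 and 6.86 in mutant worms against 8.34, 8.62 and 8.0 in wild type worms. It fell by 1.32 (SE 0.15, limma adjusted p = 0.000228), or 2.50-fold, and dod-19 fell by 0.49 (SE 0.103, adjusted p = 0.00607). The nuclease gene nuc-1 rose by 0.66 (SE 0.102, adjusted p = 0.00127). The yolk gene vit-2 differed by −0.16 (adjusted p = 0.171), at a low signal, percentile 6.03 of all probe sets. The ins-7 ligand, described above, is known as a gene of the same kind.

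**Figure D5:**
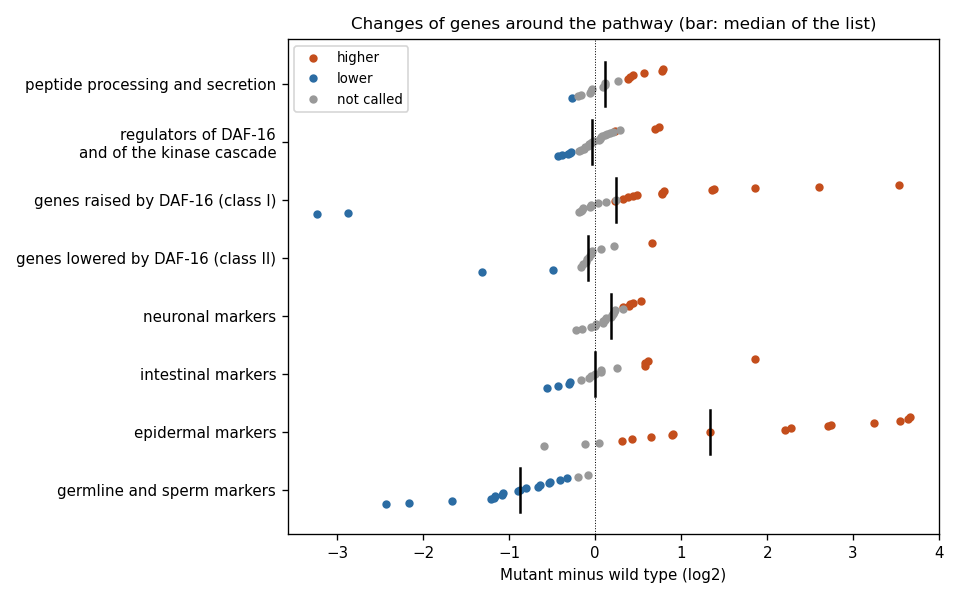
Change of each gene, mutant minus wild type on the log2 scale, in 4 lists around the pathway and 4 lists of tissue markers, 1 point per gene; orange marks rises, blue falls, grey genes that did not pass, and black bars the list medians. The medians run from −0.88 for germline and sperm markers to 1.34 for epidermal markers, and that of genes raised by DAF-16 is 0.24.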

How the data were processed

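Each probe set has 1 deposited log2 value on every array. The authors made these values with Affymetrix Power Tools, as the submitters' processing notes state; no source used here gives the version or the normalization. That the scale is log2 was read from the values (3.14 to 14.9), and the array medians were 6.01 to 6.05. They were used as deposited. Of 22625 probe sets, 77 controls were left out. Gene symbols are those of the platform annotation, brought up to date with RefSeq (WBcel235), in which 20701 probe sets had a match. The strains were compared, mutant minus wild type, by limma 3.58.1 in R 4.3.3 (lmFit, eBayes, two-sided), with Benjamini-Hochberg adjustment over 22548 probe sets. An exact permutation test of 3 against 3 cannot go below 0.1. The number of arrays limits the precision, and no detection calls were used. Simulated data were used to test the limma code.

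Alternatives were quantile normalization, median centring, centring on 18 hybridization control probe sets, filters on signal, a trended robust prior, weights per array, dropping probe sets whose names end in _s_at or _x_at, the mean over a gene's probe sets, a threshold of 0.01, a block for replicate number, and each array left out in turn. The members and lists were chosen with earlier results of these data known. Named genes are the pathway genes (1 of them is counted but not reported here), ligands past the threshold, the 5 ligands of highest signal, chosen ligands of known function, and up to 4 genes with the smallest p from each surrounding list; further genes of those lists are marked as named after their values were seen, and the other ligands are given so that every member is accounted for. Same-numbered arrays of the strains had correlations of deviations of 0.213, 0.126 and 0.0808, so the numbers were not taken as pairs.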

Additional observations from a re-analysis of the deposited data

How the results depend on the processing

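Changes of ins-35, ins-33, daf-28, ins-22, ins-7, akt-1 and ist-1 kept their direction and passed under every alternative that could be run for them. Rises among ligands numbered 8 with centring on the hybridization controls and 3 above the median signal, where 10 ligands were left, and 4 to 6 when single arrays were left out. Falls among ligands numbered 1 with quantile normalization, with that centring, above the 25th percentile of signal, with array weights or at a threshold of 0.01, then 0 above the median signal, and 1 to 3 without single arrays. Falls in the pathway numbered 0 with that centring and at 0.01, and 0 to 1 without single arrays. Without _s_at and _x_at probe sets, pdk-1 was read at −0.024 (adjusted p = 0.874) and daf-16 at 0.66 (adjusted p = 0.00875), since other probe sets then stood for them. That removal left 4715 probe sets called of 15837, 9 of 17 genes raised by DAF-16 and 4 of 19 regulators. At 0.01 there were 4767 probe sets called and 3 regulators. Without single arrays, called regulators numbered 3 to 7. With replicate number as a block 7766 probe sets were called, and akt-2 passed (adjusted p = 0.0187), as did its second probe set (0.0486) and the daf-2 probe set at −0.28 (0.0237). Each mutant array correlated best with its own number among wild type arrays, a hint from the data and not the design. That block changed no other call among the probe sets that stand for the members. Low signal limits ins-2, ins-3, ins-21, ins-31, ins-32, ins-37 and daf-2, all in the lowest 30.0% of probe sets.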

Other observations

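Several ligand genes are neighbours in the RefSeq gene table of WBcel235, and their changes are given side by side. On chromosome II, ins-2, ins-3, ins-4, ins-5 and ins-6 follow each other with 0 protein-coding genes between them, and their changes were −0.08, 0.22, 0.18, −0.21 and 0.29 on the log2 scale, none past the threshold. On chromosome III, ins-21, ins-22 and ins-23 lie side by side, and ins-22 rose by 0.48 (SE 0.0928, limma adjusted p = 0.00429). Its neighbours ins-21 and ins-23 differed by −0.01 (SE 0.104) and 0.13 (SE 0.0858), with ins-21 at percentile 6.72 of signal. On chromosome I, ins-24, ins-30 and ins-26 are adjacent, and differed by 0.01, 0.16 and −0.13. On chromosome V, daf-28 and ins-35, which rose by 0.55 and 3.07, have 86 protein-coding genes between them. Whether changes differ between neighbours was not tested.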
